A study of Cavia porcellus with 10 samples.

Results

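RANKL (gene TNFSF11), its receptor RANK (TNFRSF11A) and its decoy receptor osteoprotegerin (TNFRSF11B) were followed in the cervix of the guinea pig from estrus to late pregnancy. The 3 genes were taken by name from a table of 25028 Ensembl genes. TNFSF11 was selected on its own measured RNA levels, as a target of progesterone whose RNA is higher at mid-pregnancy than in estrus, and the receptors were chosen as its partners. The levels of TNFSF11, and the step from estrus to mid-pregnancy in all 3 genes, are therefore described without a test. RNA abundance is given in TPM, a share of transcripts that is corrected for gene length. Tests were limited to 12645 genes whose stage mean reached 3 TPM in 1 stage or more, and all 3 genes are among them. TNFSF11 is among them only through the pregnant stages.

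The study followed cervical remodeling in a species in which serum progesterone stays high through birth. Cervical RNA of 10 Hartley guinea pigs was sequenced, with 1 library per animal. The animals were 3 non-pregnant females (NP), 3 mid-term females at 43.6 ± 0.5 days (MT) and 4 late-term females at 65.2 ± 1.2 days that were not in labor (LT). NP females had just entered estrus, as judged by daily checks of the vaginal membrane, whose opening was seen 1 day before tissue was taken. The pregnancies were dated after death from the size of the fetuses, and only the vaginal end of the cervix was taken. No treatment and no genetic change is named for any group. Between 18730665 and 27881572 reads per animal were counted on genes. NP replicate 1 stood apart from the other NP animals, with correlations of 0.945 and 0.924 with them against 0.983 between the other NP animals (Pearson, log2(TPM + 1)), and several results are therefore also given without it.

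RANKL is a membrane-bound or shed cytokine of the tumor necrosis factor (TNF) superfamily. It binds RANK on a neighbouring cell, and RANK passes the signal through TRAF adaptors to NF-kB and AP-1 transcription factors. Osteoprotegerin is a secreted receptor without a signaling domain that binds RANKL and keeps it from RANK. In bone the balance of these proteins sets the number of osteoclasts, and in the mammary gland RANKL carries the progesterone signal from receptor-positive epithelial cells to their neighbours.

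TNFSF11 (ENSCPOG00000004659), the ligand, was at 0.780, 1.44 and 1.73 TPM in the NP animals, at 33.15, 31.92 and 21.97 TPM in the MT animals and at 20.23, 28.45, 30.64 and 24.44 TPM in the LT animals. All pregnant animals were far above all NP animals, and the MT and LT animals overlapped. The NP values rest on 17 to 31 reads per animal, the MT values on 467 to 513 and the LT values on 458 to 747. The stage means were 1.317 ± 0.487, 29.01 ± 6.13 and 25.94 ± 4.59 TPM (SD, n = 3, 3 and 4), so the MT mean was 22.0 times and the LT mean 19.7 times the NP mean. On log2(TPM + 1), where the added 1 shrinks the change of a gene this low in NP, the differences were 3.70 (SE 0.218) from NP to MT, -0.15 (SE 0.204) from MT to LT and 3.55 (SE 0.204) from NP to LT. The LT to MT ratio of the means was 0.894, and the log2 difference between these stages turned to 0.03 with median-ratio scaling. Of all genes tested, 34.9% did not overlap between NP and MT animals and 52.4% did not overlap between NP and LT animals.

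By the operational threshold of 3 TPM used in the study, TNFSF11 was not expressed in NP and was expressed in both pregnant stages. There were 263 genes with a mean under 3 TPM in NP and above it in MT, and 145 of them were also above it in LT. TNFSF11 ranked at number 18 of these 145 by its MT mean, and at number 14 of the 116 with a gene name. Its LT to MT ratio of 0.894 stood beside a median of 0.949 over the 145 genes.

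TNFRSF11A (ENSCPOG00000015245), the signaling receptor RANK, was at 4.77, 6.44 and 4.83 TPM in the NP animals, at 3.65, 5.38 and 4.75 TPM in the MT animals and at 4.57, 4.12, 4.17 and 3.71 TPM in the LT animals. The stages lay close together, with every LT animal just under the lowest NP animal and inside the range of the MT animals. The means were 5.349 ± 0.948, 4.596 ± 0.876 and 4.139 ± 0.352 TPM (SD, n = 3, 3 and 4), and 94 to 173 reads per animal lay behind them. From NP to MT the log2 difference was -0.18, without a test. From MT to LT it was -0.11 (SE 0.161), with a 95% interval from -0.472 to 0.246, a limma adjusted P of 0.62 and a P of 0.371 in a two-sided exact permutation test of square-root TPM. Its sign from MT to LT turned to 0.04 after scaling by the median ratio. From NP to LT the difference was -0.30 (SE 0.161, 95% interval -0.656 to 0.0617), which did not pass limma (adjusted P = 0.144). The exact permutation test gave P = 0.0286, the smallest value that 3 against 4 animals allow, and these stages do not overlap for 52.4% of all genes tested.

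TNFRSF11B (ENSCPOG00000011271), the decoy receptor osteoprotegerin, was at 14.31, 5.53 and 4.92 TPM in the NP animals, at 3.66, 4.58 and 3.37 TPM in the MT animals and at 5.25, 3.47, 3.62 and 6.46 TPM in the LT animals. NP replicate 1 was the highest of all animals, 2.74 times as high as the other NP animals on average, the NP animals lay above the MT animals without overlap, as in 34.9% of all genes tested, and the LT animals overlapped both other stages. The means were 8.254 ± 5.26, 3.873 ± 0.632 and 4.702 ± 1.42 TPM (SD, n = 3, 3 and 4), from 72 to 396 reads per animal. Without NP replicate 1 the NP mean was 5.224 TPM. From NP to MT the log2 difference was -0.79 (SE 0.346), without a test, and the MT mean was 0.469 of the NP mean. Without NP replicate 1 the difference was -0.36 and the ratio 0.741. From MT to LT the log2 difference was 0.20 (SE 0.324), with a 95% interval from -0.522 to 0.924, a limma adjusted P of 0.664 and an exact permutation P of 0.429. From NP to LT it was -0.59 (SE 0.324), with an interval from -1.31 to 0.131, an adjusted P of 0.148 and an exact permutation P of 0.229. When each animal in turn was left out, the difference from NP to LT ranged from -0.84 (without NP replicate 3) to -0.16 (without NP replicate 1).

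Neither receptor passed limma in the contrasts tested, from MT to LT, where 29.4% of all genes passed (6.73% higher and 22.7% lower), and from NP to LT, where 53.1% passed (11.2% higher and 41.9% lower). The exact tests of the receptors numbered 4, and their P-values were not adjusted. The intervals hold differences well beyond the measured ones, so the receptors are not shown to be stable.

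**Figure D1:**
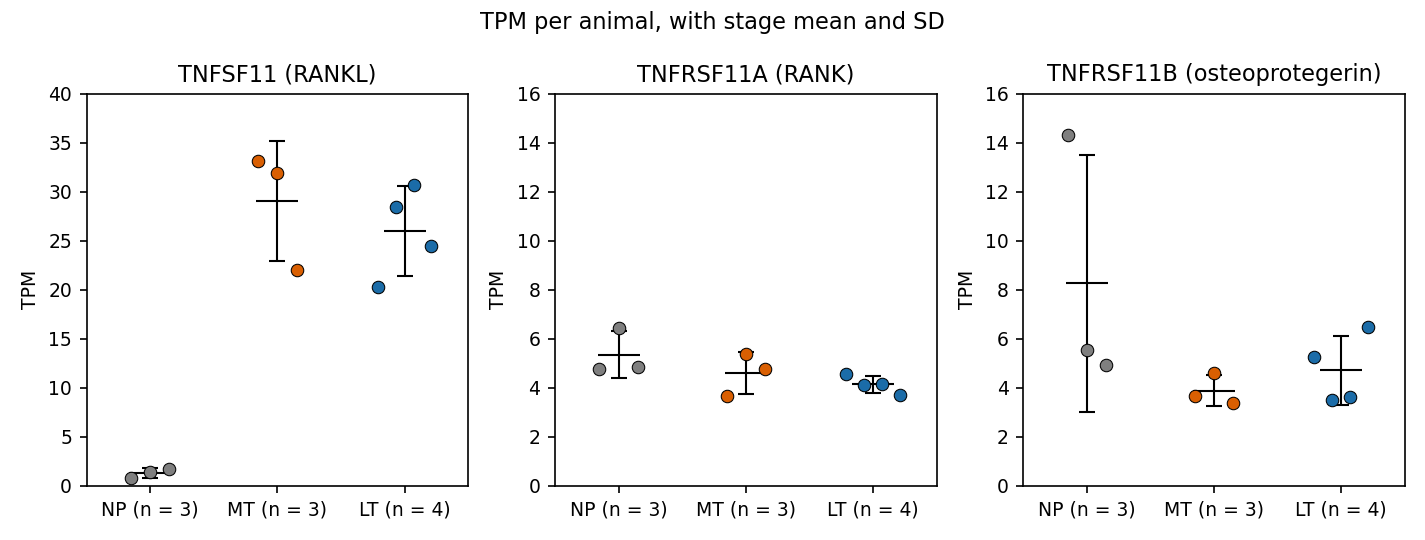
RNA abundance in TPM of TNFSF11, TNFRSF11A and TNFRSF11B in the cervix by stage (NP n = 3, MT n = 3, LT n = 4), with a point for each animal and the mean with its SD. TNFSF11 lies between 0.780 and 1.73 TPM in NP and between 20.23 and 33.15 TPM in the pregnant animals, while the receptors lie between 3.37 and 14.31 TPM in all stages.

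In bulk tissue, fewer cells of a type and less RNA per cell cannot be told apart. NP replicate 1, with the most TNFRSF11B, also had a squamous epithelium marker sum of 3235 TPM against 1048 and 1021 TPM in the other NP animals, and a smooth muscle marker sum of 21880 TPM against 8987 and 7713 TPM. The part of these markers in its TNFRSF11B value was not tested. The 5 named genes with the pattern most like TNFRSF11B over the 10 animals were NIPAL4, MAP1LC3A, CLDND1, PEA15 and SRD5A3, with Pearson's r from 0.916 to 0.951 on log2(TPM + 1) among 11408 named genes. Each of them was highest in NP replicate 1, where NIPAL4, a transporter-like gene of the epidermis, was at 8.36 TPM against 1.95 TPM or less in every other animal. For TNFRSF11A the 5 genes were SLC30A6, LCP2, GNAI2, ABI3 and ITPRIP, with r from 0.922 to 0.946. LCP2, an adaptor of T cell and platelet receptors, went from 8.90 ± 3.22 TPM in NP to 6.16 ± 1.55 in MT and 5.56 ± 1.27 in LT.

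The relation of the ligand to its receptors was read within each animal, as a ratio of TPM values. TNFSF11 over TNFRSF11B was 0.0545, 0.261 and 0.351 in the NP animals, 9.05, 6.96 and 6.52 in the MT animals and 3.85, 8.19, 8.47 and 3.78 in the LT animals. Ligand RNA was below decoy RNA in every NP animal and above it in every pregnant animal. The LT animals fell into a higher and a lower pair, and the higher pair lay inside the MT range. The mean ratio was 0.222 ± 0.152 in NP, 7.51 ± 1.35 in MT and 6.07 ± 2.61 in LT (SD), so that the MT mean was 33.8 times the NP mean, and 24.5 times without NP replicate 1. From MT to LT the mean ratio went to 0.809 of its value, with overlapping animals.

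TNFSF11 over TNFRSF11A had a mean of 0.248 ± 0.0998 in NP, 6.54 ± 2.29 in MT and 6.32 ± 1.30 in LT, and ran from 0.163 to 0.358 in NP and from 4.43 to 9.08 in the pregnant animals. The decoy and the signaling receptor were near each other, at a TNFRSF11B to TNFRSF11A ratio of 1.63 ± 1.19 in NP, 0.854 ± 0.145 in MT and 1.15 ± 0.417 in LT. The highest ratio was 3.0, in NP replicate 1, without which the NP mean was 0.938, and the lowest was 0.710, in an MT animal. Ratios that contain TNFSF11 carry the rise for which it was chosen, and are no separate result.

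**Figure D2:**
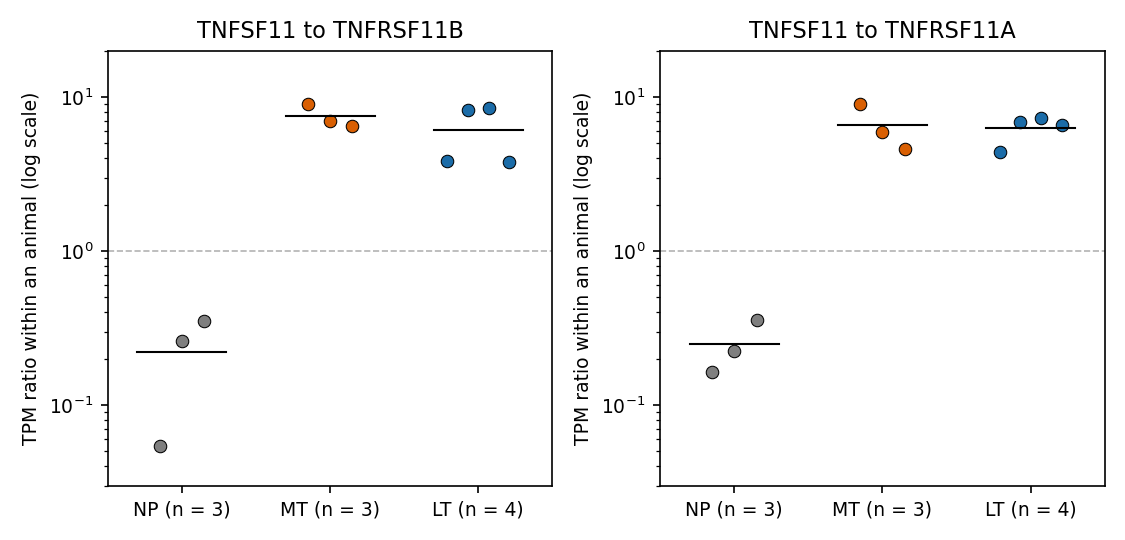
Ratios of TPM values within each animal on a log axis, for TNFSF11 over TNFRSF11B and TNFSF11 over TNFRSF11A, by stage. Both ratios are below 1 in all NP animals and above 3 in all MT and LT animals.

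RANKL was set beside the progesterone receptor, since the study asked about progesterone action toward birth. PGR, the receptor, was at 29.49, 27.78 and 23.46 TPM in the NP animals, at 60.64, 55.71 and 51.84 TPM in the MT animals and at 23.49, 31.30, 30.47 and 35.32 TPM in the LT animals. Its MT animals were above all others, and its NP and LT animals overlapped. PGR rose from NP to MT (limma log2 fold change 1.03, adjusted P = 0.00191) and fell from MT to LT (-0.89, adjusted P = 0.00315, exact permutation P = 0.0286). The LT mean was 0.538 of the MT mean for PGR and 0.894 of it for TNFSF11. These ratios are given side by side, and their difference was not tested.

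**Figure D3:**
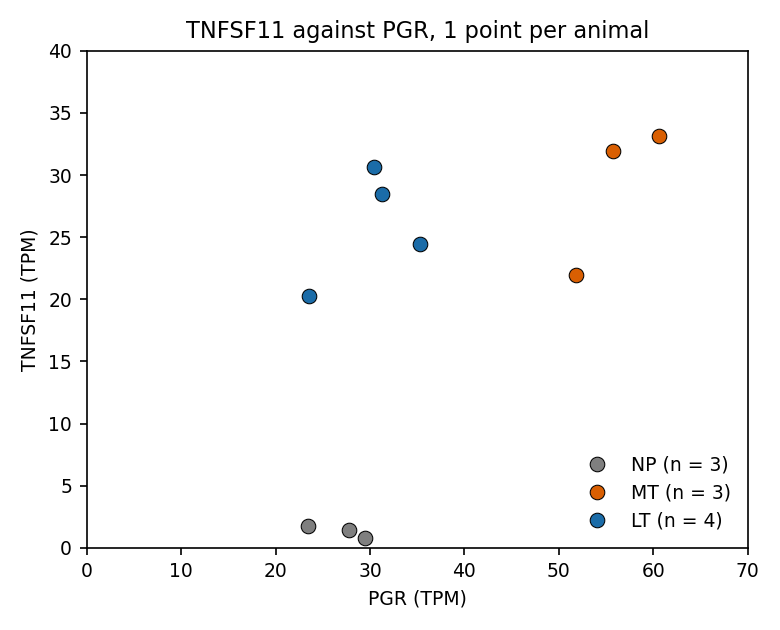
TPM of TNFSF11 plotted against TPM of PGR, with a point for each animal coloured by stage. Both are lower in NP than in MT, and in LT the PGR animals (23.49 to 35.32 TPM) lie below the MT animals while the TNFSF11 animals (20.23 to 30.64 TPM) overlap them.

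The lists of genes that follow are read against all genes tested. There 18.5% passed from NP to MT, 6.27% higher and 12.2% lower. With median-ratio scaling, which shifts the median log2 difference of all genes from -0.136, -0.157 and -0.279 to near 0 in the 3 comparisons, 10.9% were higher and 7.15% lower from NP to MT (18.0% in all), 14.6% and 14.8% from MT to LT (29.4%), and 26.3% and 23.4% from NP to LT (49.7%). Without NP replicate 1, 7.18% were higher and 25.9% lower from NP to MT (33.1%), 9.72% and 32.4% from MT to LT (42.1%), and 11.2% and 50.1% from NP to LT (61.3%).

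Of 25 genes linked to progesterone action, 22 have a row and 20 were tested. PGR is itself in this list, and its rise from NP to MT and its fall from MT to LT are among the counts. From NP to MT 4 rose and 1 fell (25.0%, against 18.5% of all genes tested), and from MT to LT 1 rose and 6 fell (7 of 20, against 29.4%). Between NP and LT 1 was higher and 8 were lower (9 of 20, against 53.1%). The median log2 differences were -0.154, -0.291 and -0.211, beside -0.136, -0.157 and -0.279 over all genes. With median-ratio scaling the counts were 4 and 1, 1 and 4, and 5 and 4. Without NP replicate 1 the count from NP to MT was 4 higher and 6 lower. Without MT replicate 2 it was 3 in all, and 4 from MT to LT. TSC22D3 was among those that rose from NP to MT (log2 fold change 0.57, limma adjusted P = 0.0422). It did not pass without MT replicate 2 (0.53, adjusted P = 0.112) or NP replicate 1 (0.56, adjusted P = 0.0563).

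FKBP5, a co-chaperone of steroid receptors and target of progesterone and glucocorticoid receptors, was at 40.11 ± 18.8 TPM in NP, 115.5 ± 30.3 in MT and 160.2 ± 43.7 in LT, and rose from NP to MT (log2 fold change 1.57, limma adjusted P = 0.0108) with no call from MT to LT (0.46, adjusted P = 0.27). ZBTB16, a zinc finger factor of decidual cells, went from 17.21 ± 3.87 to 31.76 ± 3.66 and back to 14.43 ± 2.85 TPM, with adjusted P-values of 0.0147 and 0.00362. The rise of ZBTB16 had a log2 fold change of 0.86, and just missed the threshold without MT replicate 2 (0.78, adjusted P = 0.0509) and with the replicate number as a block (0.86, adjusted P = 0.0555). RSPO1, a secreted enhancer of Wnt signaling, fell from 10.48 ± 4.41 TPM in NP to 0.733 ± 0.551 in MT (-2.71, adjusted P = 0.00107). NR2F2, an orphan nuclear receptor of stromal cells, fell from MT to LT (-0.89, adjusted P = 0.0031).

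Genes known to control RANKL or osteoprotegerin transcription, not all of them in bone, were also read. Of 18 such genes 15 have a row and 11 were tested. PGR is in this list too, and its rise from NP to MT and fall from MT to LT are again among the counts. Those that passed were 2 higher and 3 lower from NP to MT (45.5%, against 18.5%), 0 and 4 from MT to LT (36.4%, against 29.4%) and 1 and 5 from NP to LT (54.5%, against 53.1%), and with median-ratio scaling the counts were 2 and 1, 1 and 4, and 3 and 4. PTH1R, the parathyroid hormone receptor, went from 31.17 to 22.35 and 5.903 TPM and fell from MT to LT (-1.75, limma adjusted P = 0.00162). RUNX2, the master factor of osteoblasts, rose from 39.34 TPM in NP to 61.41 in MT (0.64, adjusted P = 0.0127) and fell to 40.17 in LT (-0.60, adjusted P = 0.00888). NR3C1, the glucocorticoid receptor, fell from 25.79 TPM in MT to 16.48 in LT (-0.61, adjusted P = 0.00856). IL1A, a cytokine that induces RANKL in bone, had the largest change of the list, from 172.1 ± 202 TPM in NP to 1.266 ± 0.593 in MT and 2.376 ± 0.997 in LT, and fell from NP to MT (-5.46, adjusted P = 0.00202). Its NP mean was 56.85 TPM without NP replicate 1, and the fall passed without it (adjusted P = 0.00101). TGFB1 and STAT3, a growth factor and a factor of cytokine signaling, also fell at this step (-0.56 and -0.38, adjusted P = 0.0307 and 0.043), but not with median-ratio scaling (adjusted P = 0.167 and 0.141). ESR1, the estrogen receptor, was lower in LT than in NP (-1.26, adjusted P = 0.00473).

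Downstream of RANK, 33 genes of adaptors, kinases and transcription factors were listed, of which 30 have a row and 29 were tested. From NP to MT 2 rose and 6 fell (27.6%, against 18.5% of all genes), from MT to LT 2 rose and 6 fell (27.6%, against 29.4%) and from NP to LT 3 rose and 17 fell (69.0%, against 53.1%). The medians were -0.225, -0.299 and -0.403, beside -0.136, -0.157 and -0.279 over all genes. Scaling by the median ratio centred all genes near 0, and the counts were then 3 and 4, 3 and 4, and 6 and 8. Over all genes tested, median-ratio scaling turned 1417 higher and 5301 lower genes from NP to LT into 3330 and 2955. Leaving out 1 animal moved the count from NP to MT between 3 and 13. It was 13 without NP replicate 1, 3 without NP replicate 2, 4 without NP replicate 3, MT replicate 1 or MT replicate 3, and 5 without MT replicate 2, LT replicate 2 or LT replicate 3. The count from MT to LT was 14 without NP replicate 1.

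Of the 17 adaptors and kinases tested, 0 rose and 1 fell from NP to MT (5.88%, against 18.5% of all genes), 0 rose and 4 fell from MT to LT (23.5%, against 29.4%), and 0 rose and 12 fell from NP to LT (70.6%, against 53.1%). With median-ratio scaling these were 1 and 1, 1 and 3, and 2 and 4, and without NP replicate 1 they were 1 and 4, 0 and 9, and 0 and 13. TRAF6, the main adaptor of RANK, was at 13.29, 16.66 and 14.51 TPM in NP, at 12.35, 14.0 and 14.69 TPM in MT and at 9.23, 9.53, 8.22 and 9.43 TPM in LT. All LT animals were below all others, as 46.3% of all genes show no overlap between MT and LT, and TRAF6 fell from MT to LT (log2 fold change -0.54, limma adjusted P = 0.00794). It remained lower with median-ratio scaling (-0.37, adjusted P = 0.016). CYLD, a deubiquitinase that removes the ubiquitin chains through which TRAF6 signals, went from 59.44 ± 7.94 TPM in NP to 41.28 ± 3.0 in MT and 25.86 ± 2.13 in LT. Its falls from MT to LT (-0.66, adjusted P = 0.00373) and from NP to LT (-1.17, adjusted P = 0.000103) passed under every alternative. SQSTM1, the scaffold p62 that holds TRAF6 complexes, and TRAF1 fell from NP to LT by 0.73 and 0.79 on the log2 scale (adjusted P = 0.0015 and 0.00333).

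Of the 12 transcription factors tested, 2 rose and 5 fell from NP to MT (58.3%, against 18.5% of all genes), 2 rose and 2 fell from MT to LT (33.3%, against 29.4%), and 3 rose and 5 fell from NP to LT (66.7%, against 53.1%). With median-ratio scaling these were 2 and 3, 2 and 1, and 4 and 4. NFKBIA, the inhibitor of NF-kB and itself one of its targets, rose from 97.35 ± 9.61 TPM in NP to 203.0 ± 36.4 in MT (1.04, limma adjusted P = 0.00764) and was at 145.6 ± 36.7 TPM in LT. FOSL2, an AP-1 subunit, rose from 130.4 ± 18.1 to 241.4 ± 24.3 TPM (0.89, adjusted P = 0.00151) and was at 211.3 ± 15.1 TPM in LT. FOS, the subunit that osteoclasts need, was at 37.95, 26.38 and 28.78 TPM in NP, at 60.32, 29.88 and 46.41 TPM in MT and at 74.46, 158.3, 133.4 and 161.2 TPM in LT. All LT animals were above all others, and FOS rose from MT to LT (1.51, adjusted P = 0.00667).

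JUNB, another AP-1 subunit, fell from 67.93 to 38.36 TPM from NP to MT (-0.81, limma adjusted P = 0.00801) and rose to 75.87 TPM in LT (0.95, adjusted P = 0.00315). REL, an NF-kB subunit of lymphoid and myeloid cells, fell from MT to LT (-0.63, adjusted P = 0.00664) and from NP to LT (-1.11, adjusted P = 0.000187). RELB, the subunit of the alternative pathway that RANK also activates, and MITF, a factor of osteoclasts and pigment cells, fell from NP to LT by 1.19 and 1.62 (adjusted P = 0.00186 and 0.00127). These 3 factors were lower in LT as the T and NK cell marker sum moved from 7.216 to 44.68 TPM in NP to 5.08 to 13.86 TPM in LT, with 3 of its 8 markers under 3 TPM in every stage. The lowest NP value was that of NP replicate 1, and the other NP animals were at 29.34 and 44.68 TPM, above all LT animals. The monocyte and macrophage marker sum was 177.2 to 399.2 TPM in NP and 214.5 to 395.3 TPM in LT. The part of these cells in the changes of the 3 factors was not tested.

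**Figure D4:**
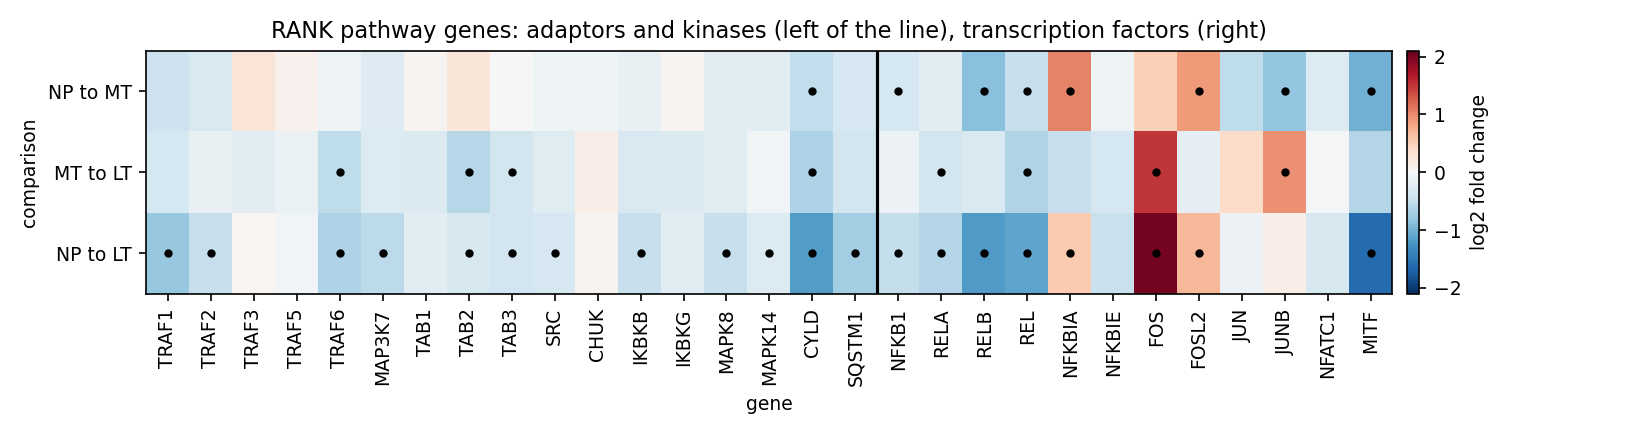
Log2 fold changes on log2(TPM + 1) of the 29 tested RANK pathway genes in each comparison, with a dot where limma's adjusted P is under 0.05. From NP to LT 3 genes are higher and 17 lower, with a median of -0.403 against -0.279 over all genes tested.

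Genes of the osteoclast, the best known cell that answers RANKL, were listed as well. Of 16 such genes 13 have a row and 10 were tested, and DCSTAMP, OCSTAMP and CALCR were under 3 TPM in every stage. None of them rose and 1 of 10 fell from NP to MT, 0 rose and 1 fell from MT to LT, and 1 rose and 2 fell from NP to LT, beside 18.5%, 29.4% and 53.1% of all genes tested that passed. With median-ratio scaling these were 1 and 1, 2 and 0, and 2 and 1, and without NP replicate 1 they were 0 and 2, 0 and 1, and 1 and 4. CA2, a carbonic anhydrase that many secretory cells also use, fell from 27.39 ± 5.90 TPM in NP to 3.444 ± 0.716 in MT (-2.67, limma adjusted P = 0.00184) and was at 4.47 ± 2.57 TPM in LT. CSF1, the growth factor of macrophages and osteoclasts, was higher in LT than in NP (0.60, adjusted P = 0.00389). CTSK, the collagen-cutting cathepsin K, was at 264.9 TPM in NP, 170.3 in MT and 183.8 in LT and passed in no comparison, but without NP replicate 1 it was lower in MT and in LT than in NP (-0.89 and -0.78, adjusted P = 0.00532 and 0.00197).

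Among the 16 TNF superfamily ligands with a row, TNFSF11 ranked at number 7 in NP and at number 2 in both pregnant stages, by mean TPM. Its neighbours in NP were TNF, at 1.47 ± 0.218 TPM, and LTA, at 1.06 ± 0.597 TPM, which overlapped it. In MT the next ligand was TNFSF13B (BAFF, a survival factor of B cells) at 14.22 ± 4.86 TPM, and in LT it was TNFSF15 (TL1A, a cytokine of endothelium) at 7.413 ± 1.75 TPM. The animals of these genes did not overlap those of TNFSF11 in those stages. Of the other 15 ligands 5 were tested, since the rest were under 3 TPM in every stage.

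TNFSF10 (TRAIL, a death ligand that osteoprotegerin also binds) ranked first in every stage. It was at 624.9, 839.6 and 1071 TPM in the NP animals, at 206.9, 320.3 and 196.9 TPM in the MT animals and at 134.1, 126.7, 107.8 and 89.12 TPM in the LT animals. The stages did not overlap. TNFSF10 fell from NP to MT (log2 fold change -1.81, limma adjusted P = 0.00147) and from MT to LT (-1.05, adjusted P = 0.00909), though the second step missed the threshold on square-root TPM (adjusted P = 0.0543). These ligands of osteoprotegerin moved in opposite directions from NP to MT, TNFSF11 upward by description and TNFSF10 downward by test.

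**Figure D5:**
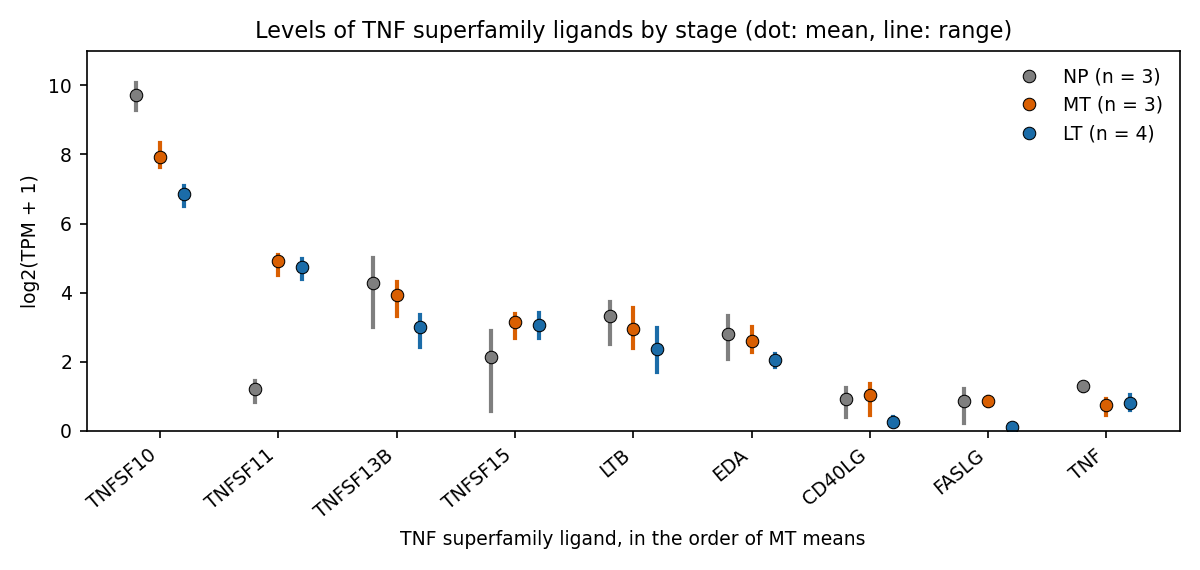
Level of the 9 most abundant TNF superfamily ligands on the log2(TPM + 1) scale in NP, MT and LT, with a dot for the mean and a line from the lowest to the highest animal. TNFSF10 is highest in every stage, and TNFSF11 goes from among the low ligands in NP (1.317 TPM) to the next rank below it in MT (29.01 TPM) and LT (25.94 TPM).

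Among 24 TNF receptors with a row, TNFRSF11A ranked at numbers 13, 10 and 11 and TNFRSF11B at numbers 10, 13 and 10 in NP, MT and LT. They overlapped each other in each stage, and both were well below TNFRSF1A, the main receptor of TNF, at 121.7 to 147.5 TPM as stage means, and LTBR, the lymphotoxin receptor, at 87.41 to 100.7 TPM. Of the other receptors 14 were tested, of which 0 rose and 3 fell from NP to MT (21.4%, against 18.5% of all genes), while from MT to LT 0 rose and 5 fell (35.7%, against 29.4%) and from NP to LT 1 rose and 6 fell (50.0%, against 53.1%). With median-ratio scaling these were 1 and 1, 3 and 5, and 3 and 4. TNFRSF14 and CD40, receptors of lymphoid and stromal cells, were lower in LT than in NP, by 1.27 and 1.39 on the log2 scale (limma adjusted P = 0.000238 and 0.0014).

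The 10 named genes with the pattern most like TNFSF11 over the 10 animals, by Pearson's r of log2(TPM + 1) among 11408 named genes, were NXPE2, RTP3, SCGB3A1, GPC6, ERN2, GRM8, TSPAN1, MGAT4A, TTC7A and INSC, with r from 0.979 to 0.99. All share the 3 groups of animals with TNFSF11, so a gene that is low in NP and high in both pregnant stages has a high r. NXPE2, with the highest r, went from 0.0647 ± 0.0399 TPM in NP to 17.96 ± 1.69 in MT and 13.87 ± 2.29 in LT. RTP3 (r = 0.988) was at 11.09 ± 0.530, 65.42 ± 4.05 and 58.14 ± 7.39 TPM, and GPC6 (r = 0.986) at 0.724 ± 0.644, 14.25 ± 2.55 and 13.76 ± 2.08 TPM. SCGB3A1, a secretoglobin of airway and gland epithelium, went from 11.01 ± 5.53 TPM in NP to 5269 ± 2110 in MT and 3766 ± 1053 in LT. Whether any of the 10 genes shares a cell type with TNFSF11 was not tested. ERN2, a stress sensor of mucus-secreting epithelium, was at 0.255 ± 0.187, 41.73 ± 28.9 and 29.47 ± 6.13 TPM. TSPAN1, an epithelial tetraspanin, was at 156.5 ± 53.7, 795.1 ± 49.6 and 799.8 ± 90.2 TPM, and MGAT4A, which branches N-glycans, was at 18.43 ± 5.84, 212.2 ± 15.1 and 165.9 ± 31.2 TPM.

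Of 10 markers of columnar epithelium 7 have a row and were tested. From NP to MT 5 rose and 0 fell, beside 6.27% of all genes that rose, while MUC1 (0.24, limma adjusted P = 0.516) and PAX8 (-0.35, adjusted P = 0.231) did not pass. Without NP replicate 1 PAX8 fell at this step (-0.60, adjusted P = 0.00995). Between NP and LT 5 were higher (KRT7, EPCAM, MUC5B, FOXA2 and AGR2, from 0.42 to 5.50) and PAX8 was lower (-0.81, adjusted P = 0.00481), 85.7% beside 53.1% of all genes. MUC5B, the main gel-forming mucin of the cervix, and KRT7, a keratin of simple epithelia, rose from NP to MT (3.75 and 1.56, adjusted P = 0.0098 and 0.00261), and MUC5B by 2.64 without NP replicate 1. AGR2, a protein disulfide isomerase of mucus cells, was at 103.7, 218.7 and 139.3 TPM in NP, at 2904, 1250 and 2612 TPM in MT and at 5547, 6982, 6782 and 7559 TPM in LT. Its stages did not overlap, and it rose at both steps (3.84, adjusted P = 0.000212, and 1.66, adjusted P = 0.00559).

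The summed level of the 7 columnar markers was 933.9 to 1035 TPM in NP, 3022 to 5094 in MT and 7336 to 9156 in LT. Without AGR2 the other 6 summed to 794.6 to 880.2 TPM in NP, 1772 to 2483 in MT and 1564 to 1839 in LT, so the higher sum in LT than in MT was that of AGR2. AGR2 alone passed from MT to LT, 1 of 7 beside 29.4% of all genes tested, where MUC5B (-1.02, adjusted P = 0.3), KRT7 (-0.09, adjusted P = 0.796) and FOXA2 (-0.80, adjusted P = 0.385) did not. With median-ratio scaling 2 were higher and 0 lower, and without NP replicate 1 the counts were 1 higher and 3 lower (MUC5B, FOXA2 and PAX8).

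Squamous epithelium markers, 7 of 10 with a row, summed to 1021 to 3235 TPM in NP, 167.6 to 1232 in MT and 1497 to 2941 in LT. Most of that sum was KRT14, a basal keratin, at 1571, 548.1 and 2237 TPM as stage means, with an NP mean of 944.3 TPM without NP replicate 1. IVL, SPRR3 and TGM1, genes of the cornified layers, were lower in LT than in NP (-4.57, -3.38 and -1.93, limma adjusted P = 0.000378, 0.00186 and 0.0446), 3 of 6 tested beside 53.1% of all genes, and TGM1 did not pass without NP replicate 1 (-0.94, adjusted P = 0.13) or with median-ratio scaling (-1.63, adjusted P = 0.103). Without NP replicate 1 IVL and SPRR3 were still lower, at -3.691 and -2.475. KRT14 (0.67), DSG3 (1.51) and TP63 (0.09) had positive log2 differences from NP to LT that did not pass, though DSG3 did without NP replicate 1 (2.42, adjusted P = 0.026). From NP to MT the same 3 cornified genes fell, 3 of 6 beside 12.2% of all genes that fell (IVL -3.33, SPRR3 -3.30 and TGM1 -3.34, adjusted P = 0.00864, 0.0102 and 0.0157). Without NP replicate 1 these differences were -2.448, -2.401 and -2.359 and still passed. That of TGM1 did not pass without MT replicate 2 (-3.04, adjusted P = 0.0535) or on square-root TPM (adjusted P = 0.0563). From MT to LT KRT14 alone rose (2.498, adjusted P = 0.0184), 1 of 6 beside 29.4% of all genes. It did not pass without MT replicate 2 (1.74, adjusted P = 0.0648). Without NP replicate 1 the counts from MT to LT were 3 higher and 1 lower. Smooth muscle markers summed to 7713 to 21880, 10290 to 16000 and 13700 to 24070 TPM, and fibroblast markers, 4 of 7 with a row, to 1245 to 1516, 1245 to 1497 and 1151 to 1800 TPM. Endothelium markers, 6 of 8 with a row, went from 106.7 to 154.0 TPM in NP to 84.04 to 114.7 in MT and 43.93 to 66.34 in LT. Monocyte and macrophage markers, the lineage from which osteoclasts arise, summed to 177.2 to 399.2, 172.4 to 199.1 and 214.5 to 395.3 TPM. The lowest NP value was again that of NP replicate 1, and the other NP animals were at 322.9 and 399.2 TPM, above all MT animals. B cell markers summed to 12.46 TPM or less in every animal, with 3 of 4 under 3 TPM in every stage. No marker was at 0 in every animal. The part of a change in cell types in the levels of TNFSF11, TNFRSF11A and TNFRSF11B was not tested.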

How the data were processed

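Poly(A) RNA of the cervix was sequenced (strand-specific, 1 × 75 bp). Per the labels and the methods, base calls came from CASAVA 1.8.2, reads were aligned with TopHat2 to the guinea pig genome cavPor3.69, and the authors made the deposited read counts per gene with HTSeq-count 0.5.4p1. The TPM values are those that the authors deposited beside the counts, scaled by gene length and library. Since TPM is a share, it falls for a gene when others take more of the library. Whether multi-mapped reads were left out is not given in the sources used here.

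Stages were compared with limma 3.58.1 (trend, R 4.3.3) on log2(TPM + 1), in 1 fit over the 10 animals with stage as the only term, and Benjamini-Hochberg adjustment over the 12645 genes whose mean reached 3 TPM in 1 stage or more. A gene was called at an adjusted P under 0.05. The receptors and PGR were also compared by two-sided exact permutation of square-root TPM. All P-values measure the spread between animals. The methods state square-root TPM with tests of single genes. That scale, a pseudocount of 0.1, no filter, only the compared stages, median-ratio scaling, edgeR 4.0.16 (TMM factors from 0.927 to 1.134, or size factors), DESeq2 1.42.0, the replicate block and leaving out each animal were the alternatives. The scripts were tested on simulated data.

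The members and lists were chosen with earlier results of these data known. Genes named are the 3 members, PGR, in each list those called with the largest changes (up to 4 per comparison) and its 3 most abundant, and the genes most like each member. Not all genes that this rule gives are described. Genes were matched by name, with 8 aliases. A strand-specific protocol was used, but the strand setting of the counting is not given in the sources used here.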

Additional observations from a re-analysis of the deposited data

How the results depend on the processing

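TNFSF11 was higher in both pregnant stages than in NP under every alternative. Its log2 difference from NP to MT was 4.49 from the means of square-root TPM, 4.40 with a pseudocount of 0.1, 4.61 and 4.61 in the edgeR fits and 4.62 in DESeq2, and from NP to LT 4.33, 4.25, 4.62, 4.62 and 4.63. Leaving out 1 animal gave 3.52 to 3.88 and 3.37 to 3.68, and -0.33 to -0.04 from MT to LT. From MT to LT its difference turned to 0.03 (median ratio) and 0.01 (both edgeR fits and DESeq2), 4 of 19 alternatives. The TNFSF11 to TNFRSF11B ratio in MT was 5.91 from reads, which are not divided by gene length. Without 1 animal it ranged from 0.158 to 0.306 in NP, 6.74 to 8.01 in MT and 5.27 to 6.84 in LT.

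TNFRSF11A from MT to LT turned to 0.04 (median ratio), 0.02 and 0.02 (edgeR) and 0.02 (DESeq2), and ranged from -0.24 to -0.01 without 1 animal, while NP to LT ranged from -0.36 to -0.18 and NP to MT from -0.29 to -0.06. TNFRSF11B ranged from -1.04 (without NP replicate 3) to -0.36 (without NP replicate 1) from NP to MT, from 0.06 to 0.31 (MT to LT) and from -0.84 to -0.16 (NP to LT). No tested contrast of the receptors passed: adjusted P ran from 0.31 to 0.971 and from 0.0931 to 0.877 for TNFRSF11A, and from 0.439 to 0.915 and from 0.0732 to 0.561 for TNFRSF11B.

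With only the compared stages, 1113 genes and 3 RANK pathway genes were called from NP to MT. DESeq2 called 8 progesterone-linked genes there. With the replicate number as a block, 1693 genes were called from MT to LT, 4 RANK pathway genes from NP to MT, and 3 progesterone-linked genes in each of NP to MT and MT to LT. The numbers only name the animals: over 9 pairs of same-numbered animals the residuals correlated from -0.287 to 0.254. The cause of these shifts was not tested. Without 1 animal, 1099 to 4202 genes were called from NP to MT (4202 without NP replicate 1, 1451 without NP replicate 2, 1099 without MT replicate 3), 1944 to 5354 from MT to LT (1944 without MT replicate 2, 2408 without LT replicate 3) and 5279 to 7794 from NP to LT. RANK pathway genes ranged from 3 to 13, 6 to 14 and 17 to 22, and progesterone-linked genes from 3 to 10, 4 to 10 and 6 to 12. The other differences of the 3 members kept their sign under all 19 alternatives.

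The depth of 17 to 31 reads limits TNFSF11 in NP, and 3 or 4 animals per stage limit the receptors.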
